A study of Mus musculus with 23 samples.

Results

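CD8lo CD172hi dendritic cells (DC2) were compared with CD8hi CD172- dendritic cells (DC1a) from spleens of TLI-treated BALB/c mice. TLI is not spelled out in the labels; the usual meaning is total lymphoid irradiation. The comparison took every TLI library of these populations, 4 of DC1a (pools 1 to 4) and 3 of DC2 (pools 1, 3 and 4), which is 7 of the 23 libraries of the series. The mice were wild type, no age is given in the labels, and each library came from a pool of mice, so p-values measure the spread between pools. By the labels, DC1a and DC2 libraries of the same number share their pool. Pools 1 and 2 were made in batch 1 and pools 3 and 4 in batch 2, so each population was present in both batches, and a batch term was kept in the fit. The cells were enriched for CD11c and gated on proteins (CD11c, MHC class II, B220, CD8 and CD172), so the levels of the genes Cd8a and Sirpa follow from the gate and serve as a check of the labels. In bulk libraries fewer cells of a type and less RNA per cell cannot be told apart.

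Classical dendritic cells fall into a pair of lineages. The cDC1 lineage depends on the transcription factors Irf8 and Batf3, carries Xcr1 and Clec9a, takes up dead cells and presents their antigens to CD8 T cells on MHC class I, and in the mouse spleen most of these cells carry CD8. The cDC2 lineage depends more on Irf4, Klf4 and Notch2, carries CD172a (the product of Sirpa), Clec4a4 and Cd209a, and is known for presentation to CD4 T cells on MHC class II. Monocytes and the cells derived from them share many genes with cDC2, such as those of Fc receptors and of lectins of the Clec4a group, and can also carry CD11c and CD172a.

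Total estimated counts ran from 23513155 to 36997890 per library with a median of 29004153. The floor of detection was set at 3 counts, or 0.0811 to 0.128 CPM (counts divided by the library total and scaled to a common total). CPM are printed after scaling by TMM factors, which lay between 0.85 and 1.15, and floors cover counting error only. Between DC1a libraries Pearson's r over genes was 0.858 and 0.893 within a batch and 0.733 to 0.765 across batches. The DC2 libraries were less alike, with 0.712 within batch 2 and 0.663 and 0.675 across batches, while pairs of different populations in the same batch had 0.663 to 0.731. The 14 T cell markers were all above the floor in the 3 libraries of batch 1 but only 3 to 5 of them in batch 2. Erythroid markers, mostly hemoglobin, took 11.3%, 2.4% and 4.78% of the counts in the libraries of DC1a pool 1, DC1a pool 2 and DC2 pool 1, and at most 0.172% in batch 2. Neutrophil markers summed to 2077 CPM in DC2 pool 1, to 205 and 127 CPM in the other DC2 libraries, and to 7.35 to 15 CPM in DC1a. Results are therefore also given without the libraries of pool 1. With the batch term kept, DC1a pool 2 is then the only library of batch 1. That fit, like the one without DC2 pool 1, compares the populations within batch 2 only. The comparison within batch 1 is lost there, and the part of other cell types in the lost calls was not tested.

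**Figure D1:**
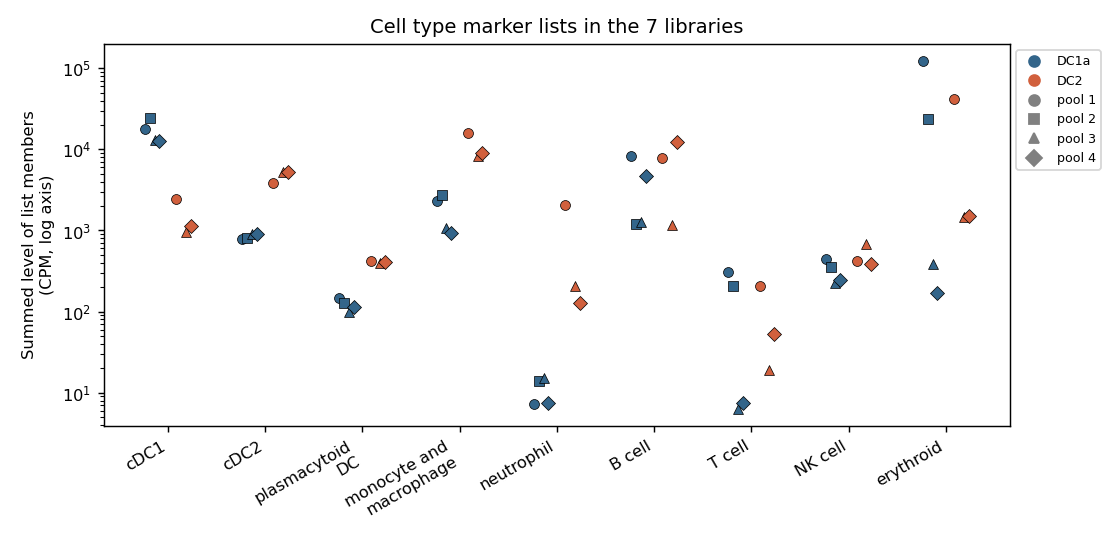
Summed level of each cell type marker list in CPM (log axis) for the 4 DC1a libraries (blue) and the 3 DC2 libraries (orange), with the pool given by the symbol. The cDC1 sum lay at 12850 CPM or more in DC1a and at 2443 CPM or less in DC2, the cDC2 sum at 908 CPM or less in DC1a and at 3798 CPM or more in DC2, and erythroid and T cell sums followed the batch.

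The gate was visible in the transcripts. Cd8a (chromosome 6 of GRCm38, 71373427 to 71379173), which encodes the alpha chain of CD8, had 650, 852, 368 and 375 CPM in DC1a pools 1 to 4 and 0.93, 0.515 and 0.24 CPM in DC2 pools 1, 3 and 4. The groups were far apart, at -9.81 on the log2 scale (standard error 0.41). Its adjusted p was 0.000798, by Benjamini-Hochberg adjustment over the quasi-likelihood tests of edgeR, which gave all adjusted p-values below. Sirpa (chromosome 2, 129592835 to 129632228) went the other way, with 0.19, 0.0737, 0.789 and 0.542 CPM in DC1a and 32.1, 8.3 and 270 CPM in DC2. All DC2 libraries lay above all DC1a libraries, but they differed widely from each other, and the call (log2 fold change 7.77, standard error 1.27, adjusted p = 0.0379) was lost in 6 of the 7 fits that left out a library, with adjusted p from 0.105 without DC2 pool 4 to 0.141 without DC1a pool 3. Cd8b1, the beta chain of CD8, had 12.7, 4.57, 5.71 and 11.5 CPM in DC1a and at most 0.0601 CPM in DC2, at the floor, and did not pass the test (adjusted p = 0.0563). Itgax, which encodes CD11c, had 91.1 to 138 CPM in DC1a and 202 to 283 CPM in DC2, without overlap but also short of the threshold (adjusted p = 0.0559). H2-Aa, an MHC class II chain, was lower in DC2, from 11403 to 19133 CPM in DC1a and 5686 to 7829 CPM in DC2 (log2 fold change -1.10, standard error 0.12, adjusted p = 0.0113). H2-Ab1, another class II chain, had 7583 to 24046 CPM against 4162 to 7114 CPM (adjusted p = 0.0522). Ptprc, whose products include B220, had 264 to 717 CPM in DC1a and 1134 to 3128 CPM in DC2 (adjusted p = 0.0552). Neither overlapped between the groups and neither passed the threshold.

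DC2 had higher levels of members of the Sirpb1, Clec4a and Ms4a families and of activating and inhibitory Fc receptors. DC1a had higher levels of 14 cDC1 markers, among them the langerin gene Cd207 and the endosomal receptor gene Tlr3. Of 14322 genes tested, 419 were past the threshold, 2.93% of those tested, with 247 higher in DC2 (1.72%) and 172 lower (1.20%). The unadjusted p was under 0.05 for 2723 genes. All 419 had the same direction in each batch taken alone. Their choice from these same libraries favours this, and DC2 pool 1 is the only DC2 library of batch 1, so it is not independent support. In 379 of the 419 the groups did not overlap, which was the case for 17.8% of all genes tested. The median log2 fold change over all genes tested was -0.09. The genes named follow a rule on the size of the difference and on the lists, except Fcer1g, Tyrobp, Fcgr2b, Fcgr4, Siglecg, Clec7a, Clec4b2, Ms4a1, Ms4a6b, Ms4a6d, Ms4a7, Tlr8, Tlr9, Ccr7, Csf1r, Cx3cr1, C1qa, Siglech, Fos, Egr1, Il1b, Cd86 and Cd274, which were picked from the lists or clusters after their values were seen. The biological coefficient of variation was 0.921 with 4 residual degrees of freedom, so a gene that was not called is not shown to be alike in both populations.

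Adding the pool to the fit as a replicate block, which leaves fewer residual degrees of freedom, left 15 calls, all of them among the 419. The other calls kept their direction and an unadjusted p under 0.05. They were chosen from these same libraries, which favours this, so it is not independent support. The 12 genes higher in DC2 in that fit were Sirpb1a, Sirpb1b, Sirpb1c, Adgre4, Wfdc17, Clec4b1, Gngt2, Fcer1g, Ms4a6c, S100a6, Ccl6 and Ccl9, and the 3 lower ones were Cd8a, Cst3 and Rab7b. S100a6, Wfdc17, Gngt2, Cst3 and Rab7b were named after their values were seen. Of the 86 genes past the threshold that the rule for named genes took, 9 stayed past it with the block and the adjusted p of the others ran from 0.0537 to 0.285. Leaving out a single library gave 106 calls without DC1a pool 1, 164 without pool 2, 73 without pool 3 and 64 without pool 4, and 314, 206 and 170 without DC2 pools 1, 3 and 4. Without DC2 pool 1 the genes higher in DC2 were 36.6% of the calls, against 58.9% with all libraries. Without both libraries of pool 1, where the populations are compared within batch 2 only, there were 39 calls, 30 of them among the 419. The fit reported here and all 17 others had 9 calls in common: Sirpb1a, Clec4b1, Fcer1g, Ms4a6c, Ccl6, S100a6, Wfdc17, Gngt2 and Cst3.

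**Figure D2:**
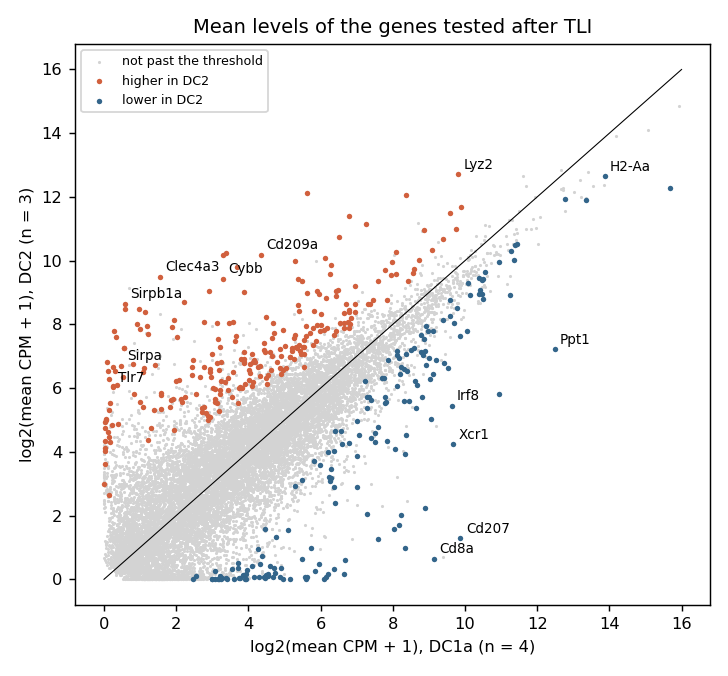
Mean level of each of the 14322 genes tested, as log2(mean CPM + 1), in DC1a (horizontal axis, n = 4) and DC2 (vertical axis, n = 3), with the 247 genes higher in DC2 in orange, the 172 lower in blue and the line of equal levels in black. Sirpb1a, Clec4a3 and Tlr7 lay close to 0 in DC1a, while Cd8a and Cd207 did so in DC2, and Lyz2 and H2-Aa were high in both.

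Of the 12 largest increases, all but Adgre4, Mmp12 and S100a4 lay in 3 gene clusters. The Sirp cluster on chromosome 3 (15296551 to 16006437) holds Sirpb1a, Sirpb1b, Sirpb1c, Gm5150 and Gm9733, relatives of Sirpa; the SIRP-beta proteins lack the inhibitory tail of SIRP-alpha and signal through the adaptor Tyrobp. All 5 were higher in DC2, against 1.72% of all genes tested. Sirpb1a had 0.8, 0.405, 0.474 and 0.319 CPM in DC1a pools 1 to 4 and 393, 476 and 336 CPM in DC2 pools 1, 3 and 4, which is 9.72 higher on the log2 scale (standard error 0.43, adjusted p = 0.000798, and 0.0428 with the block). For Sirpb1c the DC1a levels were 0 to 0.765 CPM and the DC2 levels 287, 422 and 368 CPM, and for Sirpb1b they were 0 to 0.351 CPM against 184, 256 and 224 CPM. Gm5150 had 0.479 to 2.18 CPM in DC1a and 283, 388 and 341 CPM in DC2, and Gm9733 had 0.343 to 1.47 CPM against 188, 382 and 209 CPM. No DC1a library came near the DC2 libraries in any of these genes. The 3 Sirpb1 genes are near copies: 29% of the windows of 76 bases (the read length) in the transcripts of Sirpb1a, 46.5% in Sirpb1b and 37% in Sirpb1c also lie in a transcript of another gene, so reads could be divided among them in the counting and their separate levels are uncertain. Their likeness reaches into the promoters, which is why that stretch is shown here. In RefSeq's promoters (build GRCm38.p6, minus strand of chromosome 3, the 250 bases before the start to 50 after it), a stretch of 147 bases before the start is shared without gaps, and 139 of its positions are the same in all 3 genes. It lies at chr3:15426531-15426677 for Sirpb1a, chr3:15575076-15575222 for Sirpb1b and chr3:15848539-15848685 for Sirpb1c. Capitals mark the 8 positions at which the genes differ:
Sirpb1a: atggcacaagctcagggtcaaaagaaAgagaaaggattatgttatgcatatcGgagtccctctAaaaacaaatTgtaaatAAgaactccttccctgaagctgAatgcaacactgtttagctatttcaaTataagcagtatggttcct
Sirpb1b: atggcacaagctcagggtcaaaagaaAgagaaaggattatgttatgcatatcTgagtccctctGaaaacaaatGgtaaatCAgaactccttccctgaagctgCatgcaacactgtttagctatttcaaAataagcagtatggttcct
Sirpb1c: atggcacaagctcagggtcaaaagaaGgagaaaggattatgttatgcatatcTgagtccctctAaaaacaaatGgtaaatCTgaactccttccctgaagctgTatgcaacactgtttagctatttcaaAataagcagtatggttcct

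Identity over this stretch was 95.9% between Sirpb1a and Sirpb1b, 95.2% between Sirpb1a and Sirpb1c and 97.3% between Sirpb1b and Sirpb1c. The reference is that of C57BL/6 mice, and BALB/c sequence was not used here.

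The lectin cluster on chromosome 6 (122921848 to 123204671) encodes C-type lectin receptors of the DCIR group, several of which carry inhibitory motifs. Of its 6 genes of the Clec4a and Clec4b groups, 5 were higher in DC2, against 1.72% of all genes tested. Clec4a3 had 0.647, 0.184, 5.24 and 1.72 CPM in DC1a and 552, 659 and 953 CPM in DC2 (log2 fold change 8.86, standard error 0.91, adjusted p = 0.0103). Clec4a1 had 0.41 to 3.64 CPM against 136, 228 and 376 CPM, Clec4a2 1.63 to 6.25 CPM against 231, 437 and 589 CPM, and Clec4b1 2.95 to 21.8 CPM against 484, 975 and 1187 CPM. Clec4a4, which encodes the DC2 marker recognized by the antibody 33D1, had no count in 3 DC1a libraries and 0.221 CPM in pool 3, and 93.2, 122 and 123 CPM in DC2 (adjusted p = 0.015), with 12.6% of its windows shared with Clec4a2. The remaining gene, Clec4b2, had 55.9 to 184 CPM in DC1a and 1.08, 27 and 0.15 CPM in DC2, did not overlap between the groups and was not past the threshold. So Clec4b1 and Clec4b2, which have Clec4a2 between them, had their higher levels in different populations, although Clec4b2 was not called (adjusted p = 0.207).

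The Ms4a cluster on chromosome 19 (11249675 to 11604849) encodes proteins that span the membrane and are expressed by many leukocytes. Of 19 Ms4a genes there, 8 passed the filter on low levels and were tested. Of these 8, 6 were higher in DC2, against 1.72% of all genes tested. A gene could pass the filter through its level in a single population, as Ms4a4a did through DC2, which favours a difference among those tested. Ms4a4a had 0, 0.147, 0.568 and 0.287 CPM in DC1a and 171, 166 and 239 CPM in DC2 (log2 fold change 9.66, standard error 0.93, adjusted p = 0.00867). Ms4a4c had 6.09 to 12.1 CPM against 603, 1521 and 1380 CPM, and Ms4a6c 30.9 to 148 CPM against 724, 2242 and 2178 CPM, with the lowest DC2 level of both in pool 1. Ms4a6b, Ms4a6d and Ms4a7 were the other members past the threshold. Ms4a1, which encodes the B cell protein CD20, had at most 1.04 CPM in DC2 and was not past it. The gene groups of these 3 clusters were chosen after their values were seen.

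The other genes among the 12 largest increases were Adgre4, Mmp12 and S100a4. Adgre4 (chromosome 17, 55749984 to 55853662), an adhesion receptor of the F4/80 family, had 0.381, 1.29, 1.42 and 0.797 CPM in DC1a and 237, 470 and 364 CPM in DC2 (log2 fold change 8.39, standard error 0.55, adjusted p = 0.00251, and 0.0428 with the block). Mmp12, a metalloproteinase that macrophages use to degrade elastin, had 0.152 to 2.69 CPM in DC1a and 355, 150 and 194 CPM in DC2 (adjusted p = 0.0198). S100a4, a calcium-binding protein of motile cells, had 4.62 to 14 CPM against 688, 1354 and 1580 CPM (adjusted p = 0.00562), although 44.7% of its windows also lie in the overlapping gene Gm42674.

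The promoters of these 12 genes were searched for AGGAAGT on both strands, letters found within the sites that PU.1 and other ETS factors bind. Of the 11 genes with a RefSeq promoter (Gm9733 had none), 7 held it in at least 1 promoter, against 2886 of 27025 genes in the whole table (10.7%). Of all 247 genes higher in DC2 only 173 had a promoter in the table, and 43 of these held it (24.9%). Among the genes tested, 9232 had a promoter and 1061 of these held it (11.5%). Of the 12 largest decreases 7 had a promoter and 0 held it. Of the 172 lower genes 132 had one, and 17 held it (12.9%). The 7 genes that held it among the 12 largest increases are printed because of that rank, and 4 of them are relatives from the Sirp cluster. Each is read along the gene's own strand, where it appears as ACTTCCT, with the motif in capitals and up to 10 bases on either side:
Sirpb1a: aagtcacaatACTTCCTttctctacat
Sirpb1b: aagtcacaatACTTCCTttctct
Sirpb1c: aagtcacaatACTTCCTttctctacgt
Gm5150: aagttaaagcACTTCCTttttgtacat
Mmp12: cacttcacccACTTCCTcttccaagac
Adgre4: gcagtggtgcACTTCCTcc
S100a4: tctattcagcACTTCCTctctcttggt

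These windows lie at chr3:15426467-15426493 (Sirpb1a), chr3:15575016-15575038 (Sirpb1b), chr3:15848475-15848501 (Sirpb1c) and chr3:16006384-16006410 (Gm5150), all on the minus strand, and at chr9:7344299-7344325 (Mmp12), chr17:55750015-55750033 (Adgre4) and chr3:90603777-90603803 (S100a4) on the plus strand of GRCm38.p6. The motif began 56, 4, 68 and 88 bases before the start in Sirpb1a, Sirpb1c, Gm5150 and Mmp12, and after it in Sirpb1b, Adgre4 and S100a4. A match of letters is a description and binding was not measured.

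Among the largest decreases, Cd207 (chromosome 6, 83671215 to 83677857), which encodes langerin, a lectin for uptake of glycans, had 1311, 1474, 484 and 478 CPM in DC1a pools 1 to 4 and 0.818, 0.38 and 3.13 CPM in DC2 (log2 fold change -8.98, standard error 1.16, adjusted p = 0.0206). The DC1a libraries of batch 1 lay above those of batch 2, and all of them lay far above DC2. Gcsam, a signaling protein first described in germinal center B cells, had 460 to 483 CPM in DC1a and 9.93, 0.488 and 0.811 CPM in DC2 (adjusted p = 0.0285). Serpinb9, an inhibitor of granzyme B, had 157 to 523 CPM against 8.37, 0.271 and 0.571 CPM, and Gpr171, a receptor of the G protein-coupled family, 101 to 482 CPM against 6.06, 0.0542 and 0.661 CPM. In Gcsam, Serpinb9, Gpr171 and Tlr3 the library of DC2 pool 1 had the highest DC2 level. P3h2, a prolyl hydroxylase of collagens, had 41.8, 54.3, 91.2 and 80.9 CPM in DC1a and no count in any DC2 library, at least 714-fold lower (adjusted p = 0.00542), the floor being 3 counts per library. Plpp1, a lipid phosphatase, had 110 to 274 CPM against 0.541 to 2.42 CPM (adjusted p = 0.00216), and Ttc39a had 41.2 to 219 CPM against 0.0744 to 0.15 CPM. The remaining members of the 12 were Cd8a, Tlr3, Itgae, 2310031A07Rik and Ctla2b. Of the windows of Ctla2b, 62.7% also lie in other genes, 53.5% in Gm49391. P3h2, Plpp1 and 2310031A07Rik overlap a gene on the other strand, as do 86 of the 419 calls, and no source says whether reads were assigned by strand, which leaves their levels uncertain.

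**Figure D3:**
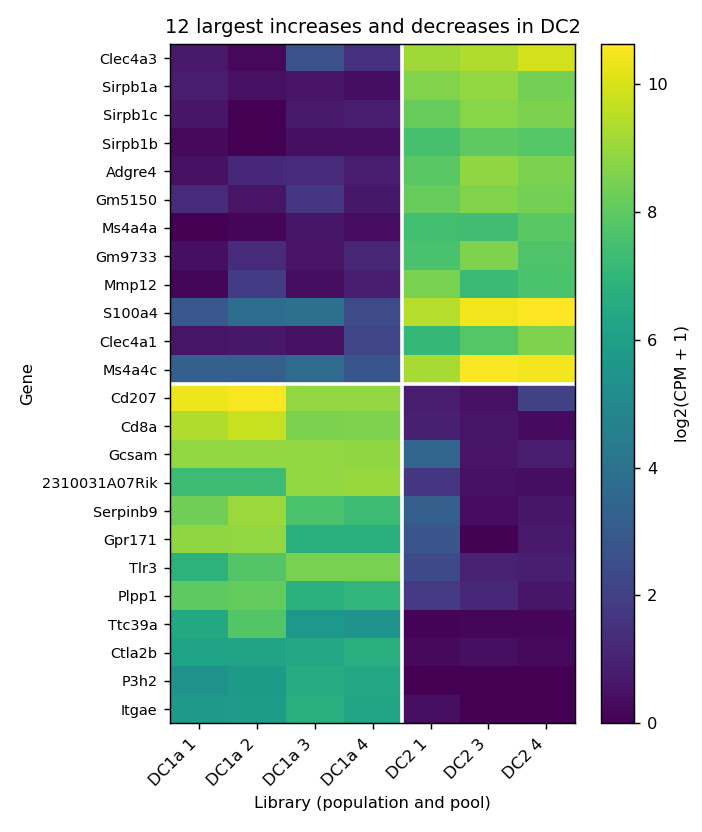
Levels of the 12 largest increases and 12 largest decreases in DC2, as log2(CPM + 1), in each of the 7 libraries, with DC1a pools 1 to 4 on the left and DC2 pools 1, 3 and 4 on the right. In every row the 3 DC2 libraries lay on the same side of all 4 DC1a libraries, as the choice of these genes required.

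All 20 cDC1 markers were lower in DC2 without overlap, while 17.8% of all genes tested did not overlap in either direction. The threshold was passed by 14 of the 20 (70% of those tested, against 1.20% of all genes). The median difference of the 20 in log2(CPM + 1) was -4.30, against -0.12 over all genes tested. Xcr1, the receptor for the chemokine Xcl1 on cDC1, had 612, 1090, 721 and 830 CPM in DC1a and 3.9, 17.5 and 32.7 CPM in DC2 (log2 fold change -5.89, standard error 0.81, adjusted p = 0.0237). Irf8, the transcription factor of the lineage, had 698, 963, 727 and 776 CPM in DC1a and 65.4, 31.8 and 30.4 CPM in DC2 (log2 fold change -4.21, standard error 0.29, adjusted p = 0.00306). Both populations thus kept Irf8 well above the floor. Clec9a, a receptor for dead cells, had 368 to 694 CPM against 34, 24.5 and 35.9 CPM (adjusted p = 0.00519). Naaa and Ppt1, lysosomal enzymes, had 1262 to 3324 and 2450 to 10895 CPM in DC1a and 28 to 85.7 and 80.1 to 201 CPM in DC2. Cadm1, an adhesion molecule, Cd24a, Ly75, which encodes the uptake receptor DEC-205, Cd36, Tlr11 and the integrin gene Itgae were also lower.

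Markers of the cDC1 list that did not pass the test were Batf3, Id2, Btla, Wdfy4, Snx22 and Havcr2. Batf3 had 172 to 211 CPM in DC1a and 41.3 to 98.9 CPM in DC2 (adjusted p = 0.119). Id2, an inhibitor of E proteins, had 1692 to 2861 CPM against 1189, 275 and 363 CPM (adjusted p = 0.128), so the library of DC2 pool 1 stood apart from the others. Btla, an inhibitory receptor, showed the same pattern, with 252 to 428 CPM in DC1a and 45.9, 0.136 and 0.27 CPM in DC2 (adjusted p = 0.176). The count of 14 fell to 7 without either DC1a library of batch 1, to 3 without DC1a pool 3 or pool 4, to 6 and 4 without DC2 pool 3 and pool 4, and was 13 without DC2 pool 1. It was 5 without both libraries of pool 1 and 0 with the block.

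The cDC2 markers were mixed. Of 20, 18 passed the filter on low levels and 7 were higher in DC2, against 1.72% of all genes, with a median difference of 2.90. Cd209a, a DC-SIGN homologue, had 24.1, 17.1, 12.4 and 23.3 CPM in DC1a and 746, 1501 and 1251 CPM in DC2 (log2 fold change 5.85, standard error 0.40, adjusted p = 0.00298). Klf4, a zinc finger factor needed by part of the cDC2, had 15.4 to 39 CPM against 151, 348 and 290 CPM (adjusted p = 0.00217), and Zeb2, a repressor that opposes the cDC1 fate, 0.957 to 6.89 CPM against 156, 356 and 216 CPM (adjusted p = 0.0225). Ltb, Tmem176b, S100a4 and Clec4a4 were the other members past the threshold. Irf4, the factor most used to define the lineage, had 4.19, 1.84, 1.58 and 1.95 CPM in DC1a and 43.4, 10.1 and 105 CPM in DC2, which did not overlap and did not pass the test (adjusted p = 0.0621). Clec10a and Mgl2, paired lectin genes, had 31.2 to 39.4 and 1.76 to 38.6 CPM in DC2 and at most 2.17 CPM in DC1a, with adjusted p of 0.0584 and 0.0884. Cd300a and Tmem176a lay higher in DC2 without overlap and did not pass the test (adjusted p = 0.161 and 0.0884). Relb (adjusted p = 0.718) and Tbx21 (adjusted p = 0.475) overlapped between the groups. Dtx1 had at most 4.87 CPM in any library and was not tested.

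Some genes that define the CD4 positive cDC2 of the spleen did not separate the populations. Esam, an adhesion gene of the cDC2 that depend on Notch2, had no count in any DC2 library and 11.3, 4.27, 0 and 1.56 CPM in DC1a. Cd4 had 19, 2.82 and 9.26 CPM in DC2 and 4.65 to 9.25 CPM in DC1a (adjusted p = 0.809). Itgam, which encodes CD11b, had 30.3, 0.19 and 82.1 CPM in DC2 and at most 0.379 CPM in DC1a. It was not tested because of its low level in most libraries, and 65.2% of its windows are shared with Gm49368. DC2 pool 3 was lowest of the DC2 libraries in Sirpa, Irf4, Itgam, Cd4 and Mgl2. Clec12a, at 351 to 707 CPM in DC1a and 387 to 744 CPM in DC2, overlapped between the groups. The count of 7 lay between 4 and 8 with 1 library left out, the 4 without DC1a pool 1 and without DC1a pool 4, and was 0 without both libraries of pool 1 and with the block.

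Of 41 transcription factors of dendritic cell lineages tested, 5 were higher (Id3, Zeb2, Klf4, Bcl11a and Cebpb; 1.72% of all genes were) and 1, Irf8, was lower (1.20%). Irf8, Zeb2 and Klf4 are also members of the lists above. Id3, an inhibitor of E proteins, had 2.4, 2.62, 0.347 and 1.31 CPM in DC1a and 115, 111 and 86 CPM in DC2 (log2 fold change 6.36, standard error 0.64, adjusted p = 0.00994), while its relative Id2 was lower in each DC2 library without passing the test. Bcl11a, needed for plasmacytoid cells and lymphocytes, had 25.1 to 27.9 CPM against 67.4 to 140 CPM (adjusted p = 0.0276). Cebpb, a factor of monocytes, had 11.8, 9.1, 1.01 and 1.5 CPM in DC1a and 211, 43.5 and 47.8 CPM in DC2 (adjusted p = 0.00365). The count of 6 was 3 without DC1a pool 1 or pool 4, 1 without both libraries of pool 1 and 0 with the block. Zbtb46, a factor of classical dendritic cells chosen after its values were seen, had 83.6, 124, 46.7 and 59.6 CPM in DC1a and 9.67, 7.7 and 30.6 CPM in DC2 (adjusted p = 0.176). Of 20 genes of the Notch pathway, 1 was past the threshold, the target gene Hes1, with 16 to 68.9 CPM in DC1a and 78.7, 152 and 195 CPM in DC2 (adjusted p = 0.041). This call was lost whichever library was left out, without both libraries of pool 1 and with the block, and 1 of 20 (5%) compares with 2.93% of all genes. Notch2 overlapped, at 7.96 to 41.2 CPM and 40.5 to 61.5 CPM (adjusted p = 0.28).

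Of 21 Fc receptors and other receptors with immunoglobulin-like domains tested, 12 were higher in DC2 and 0 lower, against 1.72% and 1.20% of all genes, and 9 were not past the threshold. The difference was above 0 in 19 and below 0 in 2, with a median of 3.46. The activating receptors for IgG work with a shared signaling chain, Fcer1g. This chain had 77.2, 54.8, 156 and 150 CPM in DC1a and 2109, 2923 and 3131 CPM in DC2 (log2 fold change 4.59, standard error 0.23, adjusted p = 0.00132). Fcgr3 had 0.979 to 10.6 CPM against 382, 253 and 167 CPM (adjusted p = 0.00923), Fcgr4 10.4 to 18.7 CPM against 181, 42.8 and 189 CPM (adjusted p = 0.0435), and the inhibitory receptor Fcgr2b 12.1 to 61.9 CPM against 365, 358 and 455 CPM (adjusted p = 0.0274). Fcgr1, the high-affinity receptor and a marker of monocyte-derived cells, was at the floor in every DC1a library and had 40.2, 21.9 and 15.2 CPM in DC2, at least 249-fold higher (adjusted p = 0.0334). The adaptor Tyrobp, which also serves SIRP-beta, Lilra5, Pilra, Pilrb1, Siglecg, Cd300lb and Cd300ld were the other members past the threshold, of which Siglecg overlapped between the groups, at 2.02 to 13 CPM and 206, 10.9 and 23.4 CPM. Pilrb1 and Pilra overlap genes on the other strand, and 10.7% of the windows of Pilrb1 are shared. This count was between 1 and 4 whichever library was left out, 2 without both libraries of pool 1, and 1 with the block (Fcer1g).

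Of 22 C-type lectins tested, 7 were higher in DC2 and 3 lower, against 1.72% and 1.20% of all genes. Besides the members of the cluster on chromosome 6 and Cd209a, Clec7a, which encodes the glucan receptor Dectin-1, was higher, with 4.58 to 34.9 CPM in DC1a and 329, 225 and 350 CPM in DC2 (adjusted p = 0.0235). The lower ones were Cd207, Clec9a and Ly75, which all belong to the cDC1 list as well. With 1 library left out, 4 to 8 were past the threshold, the lowest being 4 without DC1a pool 1 and 5 without DC1a pool 2 or pool 4. The count was 1 without both libraries of pool 1, and 1 (Clec4b1) with the block.

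Toll-like receptors of the endosome were divided between the populations. Tlr7, a receptor for single-stranded RNA on the X chromosome (167304929 to 167330558), had 0.267, 0.111, 0.189 and 0.159 CPM in DC1a and 58.8, 45.9 and 88.3 CPM in DC2 (log2 fold change 8.43, standard error 0.57, adjusted p = 0.00251). Tlr3, a receptor for double-stranded RNA, had 116, 220, 354 and 356 CPM in DC1a and 4.13, 0.949 and 0.871 CPM in DC2 (log2 fold change -7.15, standard error 0.96, adjusted p = 0.0228). Tlr11, a receptor for profilin of protozoa, had 128 to 316 CPM in DC1a and 11.3 to 23.5 CPM in DC2 (adjusted p = 0.0211). Tlr8 had 8.14 to 22.4 CPM in DC2 and at most 0.59 CPM in DC1a without passing the test (adjusted p = 0.108), and Tlr9 was at most 1.55 CPM in every library. The remaining 14 of 17 tested were not past the threshold, which 2.93% of all genes passed. Of the 3 calls 1 was left without DC1a pool 2, 3 or 4 or DC2 pool 4 and 0 with the block.

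Of 23 genes of MHC class I loading and cross-presentation, 5 were lower in DC2 and 1 higher, against 1.20% and 1.72% of all genes, and the median difference was -0.82. Psmb9 and Psmb8, catalytic subunits of the immunoproteasome, had 420 to 919 and 949 to 1933 CPM in DC1a and 63.9 to 196 and 383 to 513 CPM in DC2, with log2 fold changes of -2.55 and -1.56. Psme1 and Psme2, which form the proteasome activator PA28, had log2 fold changes of -1.21 and -1.10, and Pdia3, a chaperone of peptide loading, of -2.02. Cybb, on the X chromosome (9435252 to 9487771), encodes the catalytic subunit of the phagocyte oxidase Nox2, and was the member that rose. It had 5.86, 6.89, 20.6 and 2.11 CPM in DC1a and 462, 905 and 712 CPM in DC2 (log2 fold change 6.16, standard error 0.79, adjusted p = 0.0204). Psmb9, Psmb8, Psme1 and Pdia3 overlap genes on the other strand, and 22.7% of the windows of Psme2 are shared with another gene. Of 16 genes of MHC class II presentation, H2-Aa and H2-Eb1 were lower and Ctss, a protease that trims the invariant chain, was higher. H2-Eb1 had 13814, 18372, 4940 and 4533 CPM in DC1a and 6196, 2593 and 2771 CPM in DC2, so its groups overlapped across batches and not within them. Ctss had 717 to 1064 CPM against 1806 to 2239 CPM (log2 fold change 1.31, standard error 0.14, adjusted p = 0.0106). With the block 0 members of either list were past the threshold. With 1 library left out, whichever it was, 1 to 3 members of the class I list were past it, and in the class II list 0 without DC1a pool 1, 3 or 4, 1 without DC2 pool 3 and 2 otherwise.

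Among the chemokines, Ccl3, Ccl6, Ccl9 and Cxcl2 were higher in DC2 and Cxcl9 was lower, of 16 tested. Of all genes tested, 1.72% were higher and 1.20% lower. Ccl6 had 32.7, 33.3, 57.6 and 52.7 CPM in DC1a and 407, 867 and 684 CPM in DC2 (log2 fold change 3.74, standard error 0.17, adjusted p = 0.000798). Its neighbour Ccl9 had 3.16 to 22.1 CPM against 154, 266 and 376 CPM, and Ccl3, an inflammatory chemokine, 54.3 to 118 CPM against 659 to 863 CPM. Cxcl9, which attracts T cells through Cxcr3, had 217 to 457 CPM in DC1a and 22.4, 89.2 and 29.9 CPM in DC2 (adjusted p = 0.0336). Of 12 chemokine and migration receptors, Gpr183, an oxysterol receptor that positions cDC2 in the spleen, was higher, with 17.2 to 51.4 CPM against 295, 120 and 196 CPM (adjusted p = 0.0228), and Xcr1 and Ccr9 were lower. Ccr7, the receptor for migration to lymph nodes, followed batch and population together, with 860, 1264, 154 and 56.7 CPM in DC1a and 60.6, 1.93 and 18 CPM in DC2 (adjusted p = 0.0882). In batch 1 both DC1a libraries lay above the DC2 library, and so did those of batch 2. Of the 3 receptors past the threshold, 0 were past it without DC1a pool 1, 3 or 4, without DC2 pool 4, without both libraries of pool 1 and with the block, 1 without DC2 pool 1 and 2 without DC1a pool 2 or DC2 pool 3. With 1 library left out 1 to 4 of the 5 chemokines were past the threshold, with 1 without DC1a pool 3 or pool 4, 2 without DC1a pool 1 or DC2 pool 4 and 3 without DC1a pool 2 or DC2 pool 1.

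**Figure D4:**
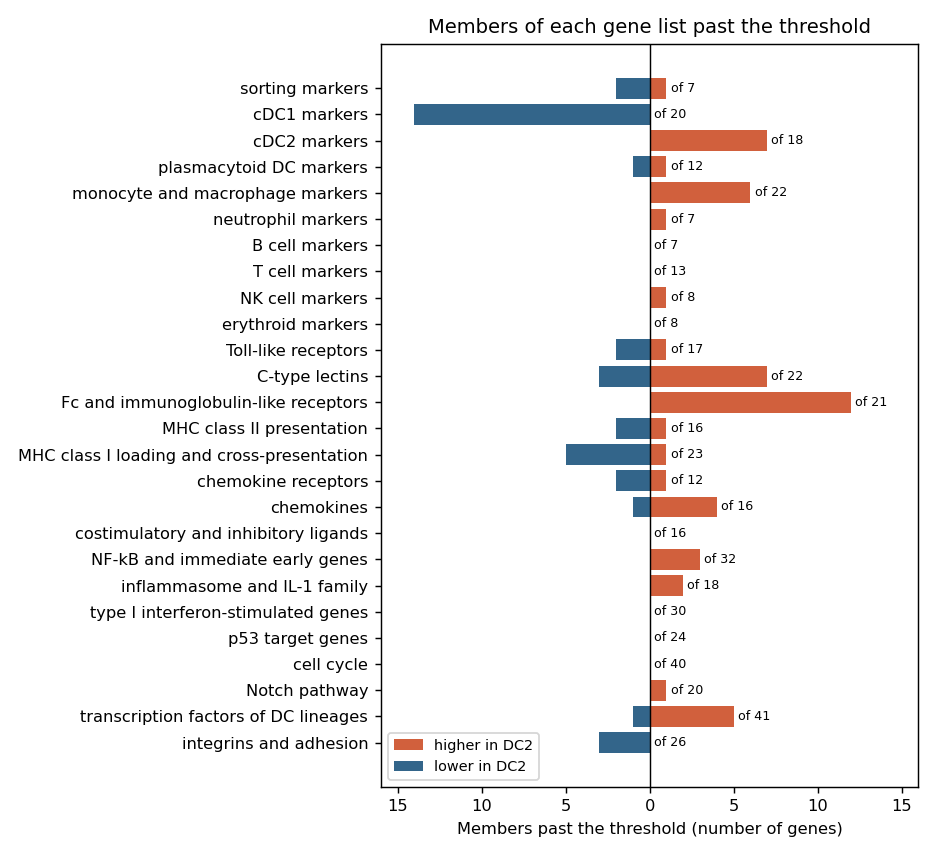
Number of members of each gene list past the threshold, higher in DC2 to the right (orange) and lower to the left (blue), with the number tested beside the bar. The longest bars are the 14 lower cDC1 markers and the 12 higher Fc and immunoglobulin-like receptors, while 7 lists, such as cell cycle with 40 genes tested, had no member past the threshold.

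Some markers of monocytes and macrophages were also higher in DC2. Of 22 tested, 6 were higher and 0 lower, against 1.72% and 1.20% of all genes, and the median difference was 3.05. Lyz2, which encodes lysozyme, had 1280, 1356, 525 and 429 CPM in DC1a and 10023, 4534 and 5578 CPM in DC2 (log2 fold change 3.22, standard error 0.18, adjusted p = 0.00178). Adgre1, which encodes F4/80, had 1.75 to 8.23 CPM against 58.7 to 98.9 CPM (adjusted p = 0.016), and F13a1, a clotting factor of monocytes, 0 to 0.255 CPM against 16, 51.3 and 70 CPM (adjusted p = 0.0128). Fcgr1, Ms4a6c and Cebpb were the others. Csf1r, the receptor that monocytes depend on, had 1.71, 16, 9.57 and 0.765 CPM in DC1a and 240, 250 and 245 CPM in DC2, alike in all DC2 libraries, and narrowly missed the threshold (adjusted p = 0.0684). Cx3cr1, the fractalkine receptor, had 29.4 to 62.4 CPM in DC2 and at most 10.1 CPM in DC1a, also without passing it. The complement gene C1qa of resident macrophages had 75, 4.74 and 22.3 CPM in DC2 and 0.914 to 5.02 CPM in DC1a. The summed list was highest in DC2 pool 1, at 15765 CPM, against 8180 and 9040 CPM in the other DC2 libraries and 944 to 2735 CPM in DC1a. The part of other cell types in these differences was not tested. With 1 library left out 3 to 6 members were past the threshold, the 3 without DC1a pool 3, DC1a pool 4 or DC2 pool 1, and 2 without both libraries of pool 1.

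Markers of the other cell types were mostly not past the threshold, which 2.93% of all genes passed. Of 7 neutrophil markers tested, S100a8 was higher, with 1.58 to 3.98 CPM in DC1a and 666, 118 and 56.4 CPM in DC2 (adjusted p = 0.0405). Ngp, a neutrophil granule protein, had 430 CPM in DC2 pool 1 and at most 0.24 CPM in the other DC2 libraries. Of 8 NK cell markers tested, Klrd1, which encodes CD94, was higher, with 4.69 to 11.8 CPM against 61.5, 144 and 129 CPM (adjusted p = 0.0254), while Gzma, at 124 CPM in DC2 pool 1, had no count in the others. With 1 library left out, each of these calls was kept only without DC2 pool 1, and both were lost without both libraries of pool 1 and with the block. None of 7 B cell, 13 T cell or 8 erythroid markers was past the threshold. Igkc, an immunoglobulin chain, had 469 to 6807 CPM in DC1a and 886 to 11351 CPM in DC2. Plasmacytoid markers had Bcl11a higher and Ccr9 lower among 12 tested. The difference was above 0 in 9 of them and below 0 in 3, with a median of 1.98. The list summed to 400 to 415 CPM in DC2 and 99.1 to 147 CPM in DC1a. Of the calls of Bcl11a and Ccr9, 1 was left without DC2 pool 1 or pool 4. There were 0 without any other library, without both libraries of pool 1 and with the block. The defining gene Siglech had at most 0.595 CPM in any library.

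Among genes of activation, 3 of 32 in the NF-kB and immediate early list were higher in DC2, namely Nfkb1, Fosl2 and Atf3, against 1.72% of all genes. Nfkb1 had 28.4 to 74.9 CPM in DC1a and 220 to 248 CPM in DC2 (adjusted p = 0.0324), while Fos (824 to 1714 CPM against 1173 to 1391 CPM) and Egr1 overlapped between the groups. Atf3, a stress-induced factor, had 468, 609, 169 and 113 CPM in DC1a and 1277, 337 and 349 CPM in DC2, so its level followed the batch as well. Of 18 inflammasome and IL-1 family genes, Casp1, the protease that activates IL-1, was higher, with 37.2 to 61.5 CPM against 153, 220 and 264 CPM (adjusted p = 0.0301), as was Naip2, a sensor of bacterial secretion systems, of which 10.4% of windows also lie in other genes, 6.01% in its relative Naip1. Il1b followed the batch, with 2389, 2920, 419 and 330 CPM in DC1a and 4166, 471 and 647 CPM in DC2 (adjusted p = 0.142). Of 26 integrin and adhesion genes 3 were lower, Itgae, Cadm1 and the tetraspanin gene Cd81, against 1.20% of all genes. Of these lists' calls, 0 to 2 in the NF-kB list, 0 or 1 in the inflammasome list and 1 to 3 in the adhesion list were past the threshold with 1 library left out.

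No member was past the threshold among 16 costimulatory and inhibitory ligands, 30 type I interferon-stimulated genes, 24 p53 target genes and 40 cell cycle genes, in edgeR's test. Members with an unadjusted p under 0.05 numbered 7, 10, 4 and 6, and DESeq2's Wald test called 8, 12, 4 and 9, respectively. Over all 14322 genes tested, 2723 had an unadjusted p under 0.05 and DESeq2 called 2499. Median differences in log2(CPM + 1) of these lists were -0.66, 0.62, -0.42 and -1.15. Cd86, a ligand of CD28, had 409 to 655 CPM in DC1a and 418, 115 and 154 CPM in DC2 (adjusted p = 0.125), overlapping between the groups, and Cd274, the gene of PD-L1, 14.6 to 68.6 CPM and 28 to 116 CPM (adjusted p = 0.274).

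The same populations of untreated mice, sorted in 2 pools of batch 1, gave a comparison that shares no library with the TLI libraries. Of the 419 genes, 409 were tested there and 385 had the same direction. How many of all genes tested did so was not counted. In the untreated fit 190 of 14377 genes tested were past the threshold, and after TLI 2.93% of all genes tested were. In both fits 85 genes were past it, all in the same direction, which is 20.3% of the TLI calls and 44.7% of the untreated calls. Whether the difference between DC2 and DC1a itself differed between TLI and untreated mice was tested as an interaction over 11 libraries with a batch term, which rests on the TLI pools alone because the untreated libraries are all in batch 1. Of 17356 genes tested, 7 were past the threshold (0.0403%), with 4 differences shifted upward after TLI and 3 downward, and 1504 had an unadjusted p under 0.05. CPM below are scaled over the 11 libraries.

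Clec9a, low in DC2 of both, had 0.928 and 1.41 CPM in untreated DC2 and 33.8, 25.8 and 37.6 CPM in TLI DC2, while DC1a had 606 and 570 CPM untreated and 374 to 721 CPM after TLI (interaction 4.89 on the log2 scale, standard error 0.44, adjusted p = 0.011). So the gap between the populations was smaller after TLI. Cd180, a TLR4-related receptor, had 373 and 350 CPM in untreated DC2 and 47.7, 30.5 and 34.5 CPM in TLI DC2, against 99.4 to 100 CPM and 76.8 to 99.7 CPM in DC1a, so the population with the higher level changed (interaction -3.04, standard error 0.24, adjusted p = 0.00823). Cacnb3, a calcium channel subunit, had 18.1 and 19.9 CPM in untreated DC2 and 0.369, 0.114 and 0.0944 CPM in TLI DC2 (interaction -5.83). Slc25a45, a mitochondrial carrier, had 18.4 and 22.5 CPM in untreated DC2 and 0.185, 0.0571 and 0.0944 CPM in TLI DC2 (interaction -7.65, adjusted p = 0.0466). Crip1, a LIM domain protein, had 349 and 261 CPM in untreated DC2 and 1056, 4305 and 3984 CPM in TLI DC2, but its DC1a level also followed the batch, with 1262 and 1078 CPM in batch 1 and 4793 and 4757 CPM in batch 2, and was 2594 and 2033 CPM in untreated mice. Lgals1, which encodes galectin-1, had 139 and 144 CPM in untreated DC2 and 442, 1463 and 1188 CPM in TLI DC2. In DC1a it had 219 and 239 CPM untreated and 152, 135, 356 and 394 CPM in TLI pools 1 to 4. The population with the higher level of Lgals1 thus changed as well, and its level followed the batch in both populations. Gstp2 had no count in untreated DC2 and 27 to 44.2 CPM in TLI DC2, and since 50% of its windows also lie in other genes, 44.8% in Gstp1, its level is uncertain. With the pool as a replicate block 0 of the 7 were past the threshold, as without either untreated DC1a library and in batch 1 alone, where 843, 929, 939 and 2208 genes had an unadjusted p under 0.05. Without DC2 pool 1 of the TLI mice there were 65, which included these 7.

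**Figure D5:**
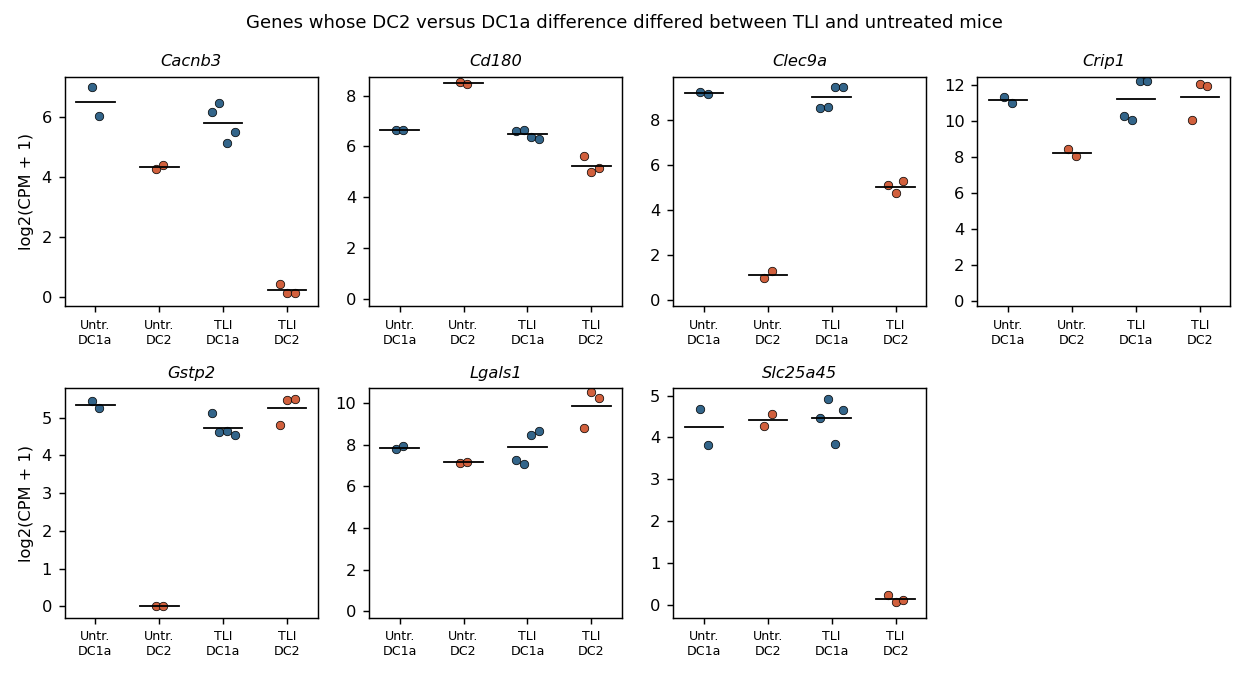
Levels of the 7 genes whose difference between DC2 and DC1a differed between TLI and untreated mice, as log2(CPM + 1), in untreated DC1a and DC2 (n = 2 each) and TLI DC1a (n = 4) and DC2 (n = 3); points are libraries and lines their means. Cacnb3 and Slc25a45 lay near 0 in TLI DC2 alone, and Clec9a lay higher in TLI DC2 than in untreated DC2.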

How the data were processed

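RNA of sorted cells was amplified with a SMARTseq v4 kit and made into KAPA HyperPlus libraries, sequenced as paired reads of 76 bases. The authors deposited whole-number estimated counts per gene (expected counts), for which the submitters' processing notes and the methods name Trimmomatic, HISAT2, StringTie, DESeq2 and GRCm38. Amplified reads are not independent molecules. Counts were taken as deposited, although the design had assumed plain counts, and 0 columns of samples were left unmapped. Of 47729 gene identifiers 47310 had a symbol.

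The TLI libraries of DC1a (n = 4) and DC2 (n = 3) were compared with edgeR 4.0.16 in R 4.3.3: genes filtered by expression within groups, TMM scaling, a robust quasi-likelihood fit with batch as covariate, and Benjamini-Hochberg adjustment over all genes tested with a threshold of 0.05. The same test was used for the untreated libraries and for the interaction over 11 libraries. Alternatives were DESeq2 1.42.0 and the settings given in the closing section. Levels are CPM after TMM scaling, and differences of levels use log2(CPM + 1). Tables were made with Python 3.11.15 and pandas 2.3.3, and the fits were tested on simulated data.

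Total counts per library were 23513155 to 36997890, and 3 counts were taken as the floor. The labels give the pool of mice, shared by DC1a and DC2 libraries of the same number. Their deviations from the group means correlated at 0.327, 0.162 and 0.150 in pools 1, 3 and 4, so the fit with the pool as a replicate block is given beside results that it changes. After the batch term was fitted the values were -0.503, -0.164 and -0.151. The deviations then cancel out within each batch and population, which by itself pushes these values downward. They therefore do not show whether partners were alike.

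Genes were named by rule: the 12 largest increases and 12 largest decreases among calls without overlap (mean in the higher group 10 CPM or more), all sorting, cDC1 and cDC2 markers, up to 6 calls of every other list, the 3 most abundant markers of other cell types, and the genes of the interaction. The members and lists were chosen with earlier results of these data known. Windows shared between genes were counted over transcripts of GRCm38, and promoters were those of RefSeq.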

Additional observations from a re-analysis of the deposited data

Results flagged for a closer look

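In 12 of 138 sets of 4 DC1a values, 1 library stood apart from the others by Dixon's criterion, which chance alone meets in about 1 in 20 groups. Values above the other DC1a libraries were found in pool 1 for Irf4 (4.19 CPM), Mgl2 (0.381 CPM), Pilrb1 (2.4 CPM) and Gstp2 (33.3 CPM). In pool 2 they were found for Snx22 (307 CPM), Zeb2 (6.89 CPM), Tbx21 (10.1 CPM) and Ccr9 (49.8 CPM). In pool 3 Clec4a4 (0.221 CPM) and in pool 4 Clec4a1 (3.64 CPM), Fcgr1 (0.0957 CPM) and Cd300lb (0.159 CPM) were the genes concerned, of which Fcgr1 lay at the floor of 3 counts. In all 12 genes but Snx22, Ccr9, Tbx21 and Gstp2 every DC2 library lay above all DC1a libraries.

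The difference between DC2 and DC1a differed between TLI and untreated mice by the test of the interaction in 7 genes. On the log2 scale, TLI minus untreated, it was 13.66 for Gstp2, 4.89 for Clec9a, 2.74 for Crip1 and 2.44 for Lgals1, and -7.65 for Slc25a45, -5.83 for Cacnb3 and -3.04 for Cd180. The value of Gstp2 rests on untreated DC2 libraries without a count and depends on the prior count of the fit. Treatment was compared over pools of which the untreated ones were all in batch 1.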

How the results depend on the processing

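Against 419 calls between DC2 and DC1a, there were 2499 (50.4% higher in DC2) with DESeq2's Wald test, 667 with at least 10 counts in every library, 201 without the batch term and 49 in batch 2 alone. Without the libraries of pool 1, a choice made after seeing the data, there were 39 (43.6% higher). This fit also compares the populations within batch 2 only, so it is not a separate check from batch 2 alone. With 1 library left out the count was 64 to 314, and the share higher in DC2 was 67.9% to 75.3% without 1 DC1a library and 36.6% without DC2 pool 1, against 58.9%. Against 73 list members past the threshold, there were 200 with DESeq2, 48 without the batch term, 16 in batch 2 alone, 13 without pool 1 and 21 to 47 with 1 library left out. For the interaction, 7 calls became 834 with DESeq2, 25 without a filter, 0 in batch 1 alone and 0 to 65 with 1 library left out.

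Under a replicate block for the pool, 15 genes (80% higher), 6 list members and 0 genes of the interaction were past the threshold, out of 419, 73 and 7. The 86 named genes past the threshold had the same direction in each of the 17 other fits that tested them, and these fits share libraries. A library without its partner adds nothing to the blocked comparison, which rests on fewer residual degrees of freedom than the fit with batch. Even with the 4 residual degrees of freedom of the fit with batch, changes that are small next to the spread between pools were not detectable.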
